A study of Aspergillus nidulans with 38 samples.

Results

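The transcriptome of *Aspergillus nidulans* after 120 min of micafungin was compared with that of the same cultures just before the drug was added. All libraries of these 2 time points were taken, which are 6 of the 38 in the series. Mycelium of 1 strain was used in both groups, the parental strain FGSC A1405, which the strain field of the labels spells AN1405. It was grown for about 20 h at 28 °C in shake flasks of low pH YGV medium. In the 0 min group the mycelium had received no drug. In the 120 min group it had been exposed to micafungin, at a dose scaled to the biomass, 20 ng/ml per g/kg. Each group held 3 libraries, and libraries with the same number came from the same flask, sampled at 0 min and again at 120 min. No untreated flask of the same age was sequenced, so the effects of the drug and of 120 min of further culture cannot be told apart.

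Micafungin is an echinocandin, a drug that blocks the enzyme making the beta-glucan of the fungal cell wall. Filamentous fungi grow at the hyphal tip, where actin, secretory vesicles and wall synthases are concentrated. When the wall is weakened, the cell wall integrity pathway, a relay from membrane sensors to a MAP kinase cascade, can change the expression of wall genes, such as those for chitin and alpha-glucan.

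The libraries held 5973782, 10036333 and 6696372 counted reads at 0 min in flasks 1, 2 and 3, and 7708548, 8714313 and 8035544 at 120 min. Over the whole series the range was 5814843 to 10846567. The value of a gene in a library is given below as a normalized count, its reads divided by a size factor for the depth of that library. Flask 2 stood apart at 0 min. There, 75 of the 8290 genes tested (0.905%) had a count over 5-fold above both other flasks, against 1 such gene in flask 1 and 8 in flask 3. Marker genes of conidia (*wetA*, *yA*, *wA* and *rodA*), the asexual spores, summed to normalized counts of 115.8 to 138.6 at 0 min and 132.2 to 144.4 at 120 min, and 0 of the 4 was called by edgeR, limma or DESeq2 or had an unadjusted p under 0.05. Markers of growing hyphae (*gpdA*, *actA* and *benA*) were abundant in all 6 libraries.

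After 120 min, 266 genes were called higher and 100 lower than before the drug, at an adjusted p under 0.05 in the quasi-likelihood test of edgeR with the flask as a block. These are 3.21% and 1.21% of the genes tested, or 4.41% together. All 366 moved the same way in the 3 flasks. For 346 of them the groups did not overlap, meaning that each library of one time lay above each of the other, as was so for 33.5% of all genes tested, 17.6% higher and 15.9% lower. The median log2 fold change was 1.80 for the genes called higher and -1.61 for those called lower, against -0.01 over all genes. Of the genes called higher, 22 had risen by more than 4 on the log2 scale and 25 by 3 to 4, while 0 of those called lower fell by more than 4 and 8 fell by 3 to 4. The genes called higher took 1.089%, 1.398% and 0.8314% of the reads in flasks 1, 2 and 3 at 0 min and 4.179%, 5.565% and 3.588% at 120 min. Those called lower went from 1.857%, 1.402% and 2.043% to 0.6203%, 0.5328% and 0.7537%. These shares were used in choosing the genes and are a description of them. The calls needed flasks 1 and 3. edgeR called 0 genes in the fits without flask 1 and without flask 3, and the unadjusted p was under 0.05 for 1584 and 1402 genes. Without flask 2 it called 453 higher and 128 lower, and the unadjusted p was under 0.05 for 1955 genes. Each of these 3 fits left 1 residual degree of freedom.

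**Figure D1:**
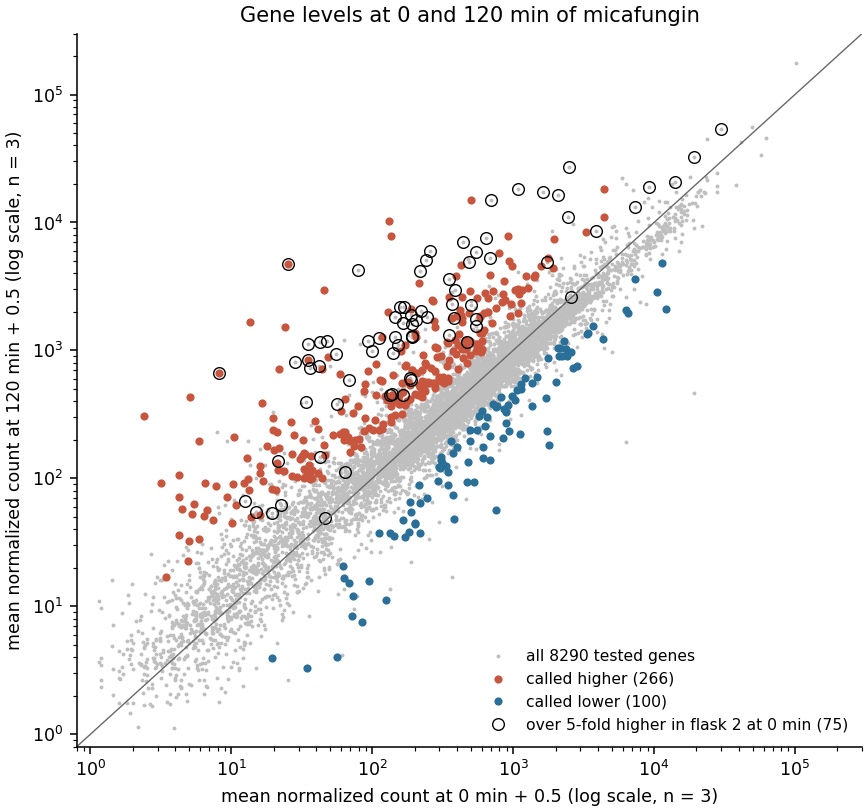
Each point is 1 of the 8290 genes tested, with its mean normalized count plus 0.5 at 0 min on the x axis and at 120 min on the y axis, both on a log scale, over 3 libraries each. The 266 genes called higher are red, the 100 called lower are blue, and circles mark the 75 genes whose count in flask 2 at 0 min was over 5-fold above both other flasks. Most circled points lie far above the diagonal, and 3 of the 75 are red.

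The largest rises with the test included a run of 4 neighbouring genes in the reference gene order, AN7952 to *furG*. *furG* (AN7955) encodes a transporter related to the yeast allantoin permease DAL4. AN7953 is a predicted oxidoreductase related to a thymine dioxygenase of *Neurospora crassa*, AN7954 is related to an aldose reductase of that fungus, and AN7952 is annotated as a hydrolase. The normalized count of AN7954 was 10.4, 57.9 and 6.10 in flasks 1, 2 and 3 at 0 min and 1232, 11161 and 1818 at 120 min. That of AN7953 went from 112, 235 and 47.6 to 2807, 24134 and 3749. *furG* went from 168, 222 and 15.9 to 1955, 18944 and 2604. In each of these genes all 120 min libraries lay above all 0 min libraries, and flask 2 was the highest at both times. The log2 fold changes were 7.56 for AN7954 (SE 0.32, adjusted p = 0.0106), 5.92 for AN7953 (SE 0.54, adjusted p = 0.0236), 5.75 for *furG* (SE 0.92, adjusted p = 0.0457) and 4.62 for AN7952 (SE 0.59, adjusted p = 0.0330), all by edgeR. The tested neighbours on both sides, AN7951 and AN7961, were not called. *furG* was not called without flask 2 (adjusted p = 0.0646), nor were *furG* and AN7952 without the flask block (adjusted p = 0.0645 and 0.0638, edgeR).

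A further run of neighbouring genes encodes the breakdown of tyrosine and phenylalanine. It holds *hpdA*, for hydroxyphenylpyruvate dioxygenase, *hmgA*, for homogentisate dioxygenase, *maiA*, for maleylacetoacetate isomerase, *fahA*, for fumarylacetoacetate hydrolase, and *hmgX*, which the pathway also needs. *hpdA* (AN1899) had normalized counts of 76.7, 295 and 14.6 in flasks 1, 2 and 3 at 0 min and 1516, 3852 and 642 at 120 min. *hmgA* (AN1897) had 332, 705 and 223 at 0 min and 1921, 3333 and 960.2 at 120 min. In both genes the flasks kept their order, flask 2 highest and flask 3 lowest, and the groups did not overlap. On the log2 scale the changes were 4.38 for *hpdA* (SE 0.38, adjusted p = 0.0223), 2.75 for *hmgX* (SE 0.16, adjusted p = 0.0174), 2.32 for *hmgA* (SE 0.15, adjusted p = 0.0174), 2.31 for *maiA* (SE 0.23, adjusted p = 0.0252) and 1.88 for *fahA* (SE 0.18, adjusted p = 0.0240) by edgeR. AN1893, at the other end of the stretch, rose by 2.18 on the same scale, while AN1894 between them was not called, with 0.03. The calls of the 5 pathway genes rest on the flask block, as adjusted p lay between 0.0676 and 0.0970 without it. The neighbour next to *hpdA*, AN1900, had a log2 fold change of -0.12. Of the 5 genes listed for amino acid breakdown, edgeR called 3 higher and 1 lower, with a median of 2.27. Over all genes tested it called 3.21% higher and 1.21% lower. The lower one was *bna4* (AN5200), for kynurenine monooxygenase of tryptophan breakdown, with -0.93 (SE 0.12, adjusted p = 0.0347), a call that ended without flask 2 (adjusted p = 0.0739) and without the block (adjusted p = 0.0573).

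**Figure D2:**
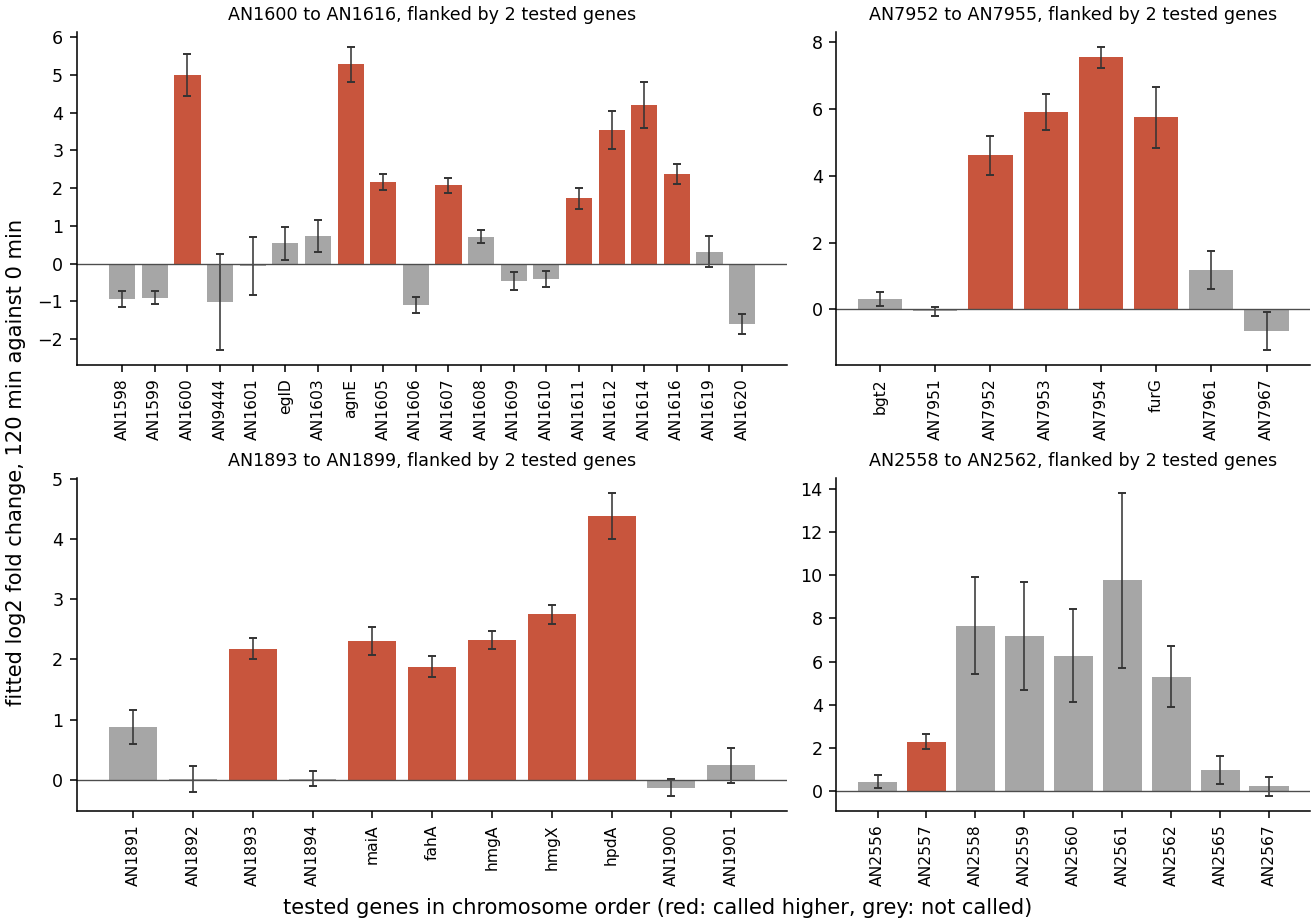
Bars give edgeR's log2 fold change of 120 against 0 min (3 flasks) for genes in chromosome order along 4 stretches, with the 2 tested genes on each side, and error bars give its standard error. Red bars passed the test and grey bars did not. All 4 genes from AN7952 to *furG* and 6 of the 7 from AN1893 to *hpdA* are red, while the bars from AN2558 to AN2562, at 5.30 to 9.77, are grey and have long error bars. The bar of AN2557, next to AN2558, is red.

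Among 13 genes listed for nitrogen and arginine metabolism, 2 of purine breakdown rose and 1 of arginine breakdown fell by edgeR's test (list median log2 fold change -0.44). *uaZ* (AN9470), for urate oxidase, had normalized counts of 1130.0, 1167 and 482 at 0 min and 9784, 5658 and 7925 at 120 min in flasks 1, 2 and 3. *hxA* (AN5613), for xanthine dehydrogenase, which makes urate, had 1441, 1657 and 583 at 0 min and 5262, 3686 and 2448 at 120 min. *agaA* (AN2901), for arginase, had 13175, 7846 and 15426 at 0 min and 2359, 561 and 3433 at 120 min. The groups did not overlap in any of these genes, and flask 2 had the smallest rise in *uaZ* and *hxA* and the steepest fall in *agaA*. edgeR's log2 fold changes were 3.16 for *uaZ* (SE 0.41, adjusted p = 0.0332), 1.72 for *hxA* (SE 0.24, adjusted p = 0.0362) and -2.78 for *agaA* (SE 0.40, adjusted p = 0.0384) by edgeR. *otaA*, for ornithine transaminase, the step after arginase, had -1.83 (SE 0.35, adjusted p = 0.0609) and was not called, although its groups did not overlap either. It passed without flask 2 (adjusted p = 0.0380). Without the flask block *hxA* (adjusted p = 0.0928) and *agaA* (adjusted p = 0.0808) were not called.

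The 8 genes listed for sulfur assimilation moved both ways, with 4 log2 fold changes above 0 and 4 below. *sA* (AN4770), for the reductase of activated sulfate, had normalized counts of 906, 953 and 517 at 0 min and 6302, 5392 and 5774 at 120 min. The groups were well apart, and the log2 fold change was 2.95 (SE 0.26, adjusted p = 0.0223, edgeR). It was the 1 gene called of the 8 listed for sulfur assimilation, whose median was 0.17. *sC*, for ATP sulfurylase, had 1.32 (SE 0.37, adjusted p = 0.114). Outside that list *metG*, for cystathionine beta-lyase in methionine synthesis, had 1.82 (SE 0.24, adjusted p = 0.0347), and AN5449, annotated as a sulfuric ester hydrolase, had 3.78 (SE 0.51, adjusted p = 0.0347). Both of these were named after their values were seen.

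Genes for sulfur uptake and release were listed here from those that the study gives as most overexpressed in these samples, so their high values follow from that choice and are no independent evidence. All 6 were higher at 120 min in all 3 flasks and edgeR called 1. This was AN2321, related to the yeast permease SEO1, with normalized counts of 5.20, 29.7 and 13.4 at 0 min and 244, 312 and 599 at 120 min and a log2 fold change of 4.58 (SE 0.52, adjusted p = 0.0295). AN4111 had 14.3, 739 and 15.9 at 0 min and 5490.3, 5688 and 6869 at 120 min. The flasks were nearly level at 120 min, but at 0 min flask 2 was far above the others. Its log2 fold change was 6.83 (SE 1.64, adjusted p = 0.0898), which edgeR did not call. AN4106, related to the yeast sulfonate and sulfur transporter SOA1, had 1.3, 81.5 and 1.22 at 0 min and 714, 726 and 976 at 120 min, a log2 fold change of 5.56 (SE 1.21, adjusted p = 0.0775). AN0215, related to the yeast sulfonate dioxygenase JLP1, AN8341, annotated as an arylsulfatase, and AN9490, related to the yeast methionine permease MUP1, had log2 fold changes of 4.91, 3.88 and 4.03 with adjusted p of 0.0946, 0.0814 and 0.0817. In these 3 genes as well the groups did not overlap and flask 2 was the highest at 0 min. Their median over the 6 was, on the log2 scale, 6.13 in flask 1, 2.60 in flask 2 and 6.72 in flask 3. Without flask 2 edgeR called 6 of 6, and DESeq2 called 6 of 6 with all flasks, while limma called 1.

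The same held beyond sulfur. Of the 63 genes with a log2 fold change above 4, edgeR called 22 and did not call 41. In 40 of the 41 flask 2 was the highest at 0 min, in 37 by the 5-fold rule. In 36 the groups did not overlap, as was so on the higher side for 17.6% of all genes tested. Flask 2 was also the highest at 0 min in 18 of the 22 called, in 3 by the 5-fold rule. Without flask 2, 40 of the 41 passed, where 453 of the 8290 genes tested were called higher. The 41 were taken for a large change that failed the test, which favours genes with a differing flask. These counts therefore describe them and are no test. The largest fold change of all 8290 genes belonged to AN2561, in which the normalized count was 5.20, 4887 and 0 at 0 min and 17864, 9732 and 24176 at 120 min. It is 1 of 5 neighbours, AN2558 to AN2562, that had log2 fold changes of 5.30 to 9.77 and were not called. The tested gene next to them, AN2557, was called higher, with 2.3 (SE 0.34, adjusted p = 0.041, edgeR), but not without flask 2 (adjusted p = 0.0523). AN2558, related to a flavin monooxygenase, went from 6.50, 1318 and 2.44 to 4770.2, 8343 and 8039.5, with a log2 fold change of 7.66 (SE 2.25, adjusted p = 0.124, edgeR). In AN2558 and AN2561 flasks 1 and 3 were near 0 before the drug while flask 2 was not, and the groups did not overlap. Neighbours AN2959, related to a major facilitator transporter of *N. crassa*, and AN2960, related to a taurine dioxygenase, had log2 fold changes of 7.44 (adjusted p = 0.104) and 6.99 (adjusted p = 0.101). AN9004, related to an enzyme of dibenzothiophene desulfurization, had 5.49 (adjusted p = 0.130).

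The 75 genes that were over 5-fold higher in flask 2 at 0 min were singled out after their values were seen, and the following describes them with no test. All 75 had a log2 fold change above 0, with a median of 4.22, and 50 of them were higher at 120 min in each flask. The flask medians at 120 against 0 min were 5.23, 1.33 and 6.69 in flasks 1, 2 and 3. With all flasks 3 of them were called. In flask 1 their median normalized count was 32.4 before the drug and 212, 738 and 1532 after 40, 60 and 120 min. In flask 3 it was 18.8, 209.3, 682.4 and 2120 at these times. In flask 2 it was 509.7 at 0 min and 457.7 at 40 min, and it reached 750.1 at 60 min and 1349 at 120 min. The quartile ranges over the genes did not overlap between flask 2 and the others at 0 min, and those of all flasks overlapped from 20 min on.

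**Figure D3:**
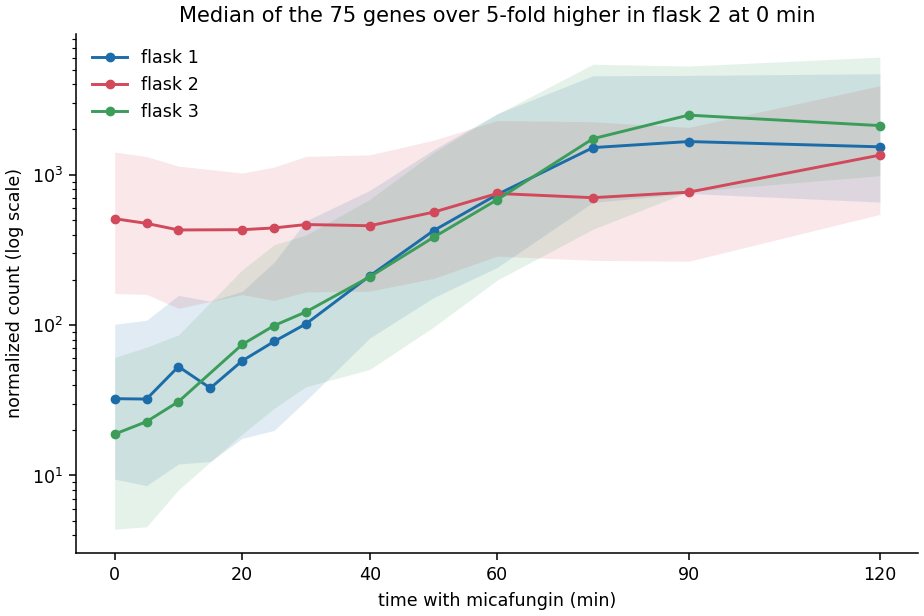
Lines give the median normalized count (y axis, log scale) of the 75 genes chosen for being over 5-fold higher in flask 2 at 0 min, by time with micafungin in minutes and by flask, and bands span the quartiles over these genes. Flasks 1 and 3 start at 32.4 and 18.8 and climb from the early time points, while flask 2 starts at 509.7 and stays near it until 40 min.

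Genes that protect against peroxides were part of this set. *trr1* (AN3581), for thioredoxin reductase, had normalized counts of 5751, 76209 and 8059 at 0 min and 62610.0, 36966 and 63118 at 120 min. *catB* (AN9339), for a hyphal catalase, had 2070.1, 54636 and 1349.8 at 0 min and 42253, 21507 and 32905 at 120 min. Both were higher at 120 min in flasks 1 and 3 and lower in flask 2, so the groups overlapped. AN2846, annotated as a glutathione peroxidase, had the same pattern, with 2108, 17379 and 2346 at 0 min and 15480.0, 5893 and 18213 at 120 min. With all flasks edgeR gave log2 fold changes of 2.03 for *trr1* (adjusted p = 0.310), 3.09 for *catB* (adjusted p = 0.303) and 1.71 for AN2846 (adjusted p = 0.398). The 8 listed antioxidant genes had flask medians of 1.16, -0.226 and 1.08. The 1 member called was *cpeA*, a catalase-peroxidase known from sexual tissue, with 101, 317 and 47.6 at 0 min and 291, 726 and 129 at 120 min. The flask levels of *cpeA* overlapped between the times although it rose in each flask, with a log2 fold change of 1.40 (SE 0.16, adjusted p = 0.0295, edgeR) that was not called without the flask block (adjusted p = 0.377).

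*brlA* (AN0973), for the regulator that starts conidiophore development, rose, while the regulators that act after it were not called. Its normalized counts were 11.7, 24.4 and 1.22 at 0 min and 149.5, 236 and 48.4 at 120 min in flasks 1, 2 and 3, with a log2 fold change of 3.66 (SE 0.36, adjusted p = 0.0252, edgeR). The groups did not overlap, and flask 3 was the lowest at both times. The later regulators *abaA* and *wetA* had log2 fold changes of 0.47 (adjusted p = 0.576) and 0.37 (adjusted p = 0.409). The summed count of the conidiophore markers *brlA*, *abaA* and *medA*, mostly *medA*, was 610.7 to 1678 at 0 min and 672.4 to 936.3 at 120 min. Of the 15 listed conidiation regulators edgeR, limma and DESeq2 each called 1 higher and 0 lower, with 3 lower at an unadjusted p under 0.05 and a median of -0.03. *ivoB* (AN0231), for a phenol oxidase of conidiophore pigment, had 3.90, 9.90 and 0 at 0 min and 48.8, 1227 and 28.9 at 120 min, and its log2 fold change was 6.32 (SE 0.70, adjusted p = 0.0292, edgeR). Here flask 2 stood far above the others at 120 min. Its neighbour AN0230 rose by 3.68 (SE 0.47, adjusted p = 0.0328). *esdC*, a gene of early sexual development, had 1291, 3578 and 1004 at 0 min and 7632, 8807 and 5839.6 at 120 min (log2 fold change 2.16, SE 0.33, adjusted p = 0.0427). The 2 markers of sexual tissue, *cpeA* and *nsdD*, went opposite ways. *nsdD* (AN3152) had normalized counts of 1995 to 3469 at 0 min and 1618 to 1706 at 120 min. Its log2 fold change was -0.65 (adjusted p = 0.129, edgeR), and it was not called. These are bulk libraries, in which more cells of a type and more RNA per cell cannot be told apart. Without the flask block *brlA*, *ivoB*, AN0230 and *esdC* had adjusted p of 0.0782, 0.101, 0.109 and 0.0860, and AN0230 had 0.0757 without flask 2.

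**Figure D4:**
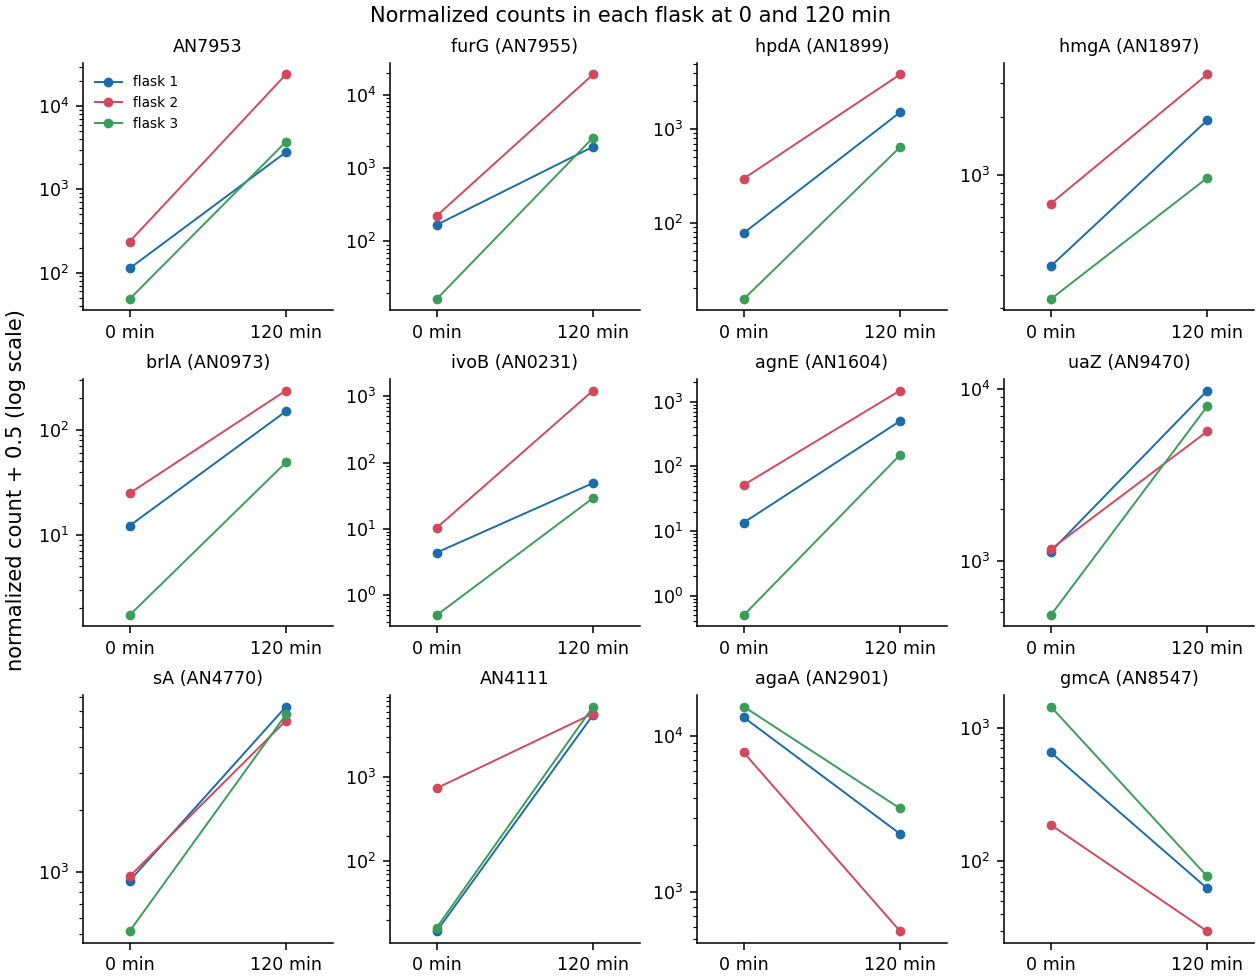
Normalized counts plus 0.5 (y axis, log scale) at 0 and 120 min for 12 genes, with 1 line per flask. The lines of each flask run upward in the first 10 genes and downward in *agaA* and *gmcA*. AN4111, which was not called, has flask 2 at 739 and the other flasks at 14.3 and 15.9 at 0 min.

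Genes acting on alpha-glucan, a wall polymer that coats the hypha and is remodelled when cells age or sporulate, were called higher in 2 of 5 cases. Over all genes tested the share called higher was 3.21%. *agnE* (AN1604), for a putative alpha-glucanase, had normalized counts of 13.0, 51.0 and 0 at 0 min and 501, 1482 and 149.9 at 120 min, with a log2 fold change of 5.28 (SE 0.47, adjusted p = 0.0223, edgeR). *agsA* (AN5885), for the minor of the alpha-glucan synthases, had 76.7, 109 and 57.3 at 0 min and 461, 2656 and 269 at 120 min, with 3.2 (SE 0.54, adjusted p = 0.05), just outside the threshold. In both genes the groups did not overlap and flask 2 was the highest at both times. *agsB*, the other synthase, had -0.57 (adjusted p = 0.0903). Of the 5 listed genes edgeR called 2 higher, *agnE* and the amylase-like *amyF*, and 0 lower. In every flask 3 of the 5 rose and 2 fell, *agsB* and *amyG* (log2 fold change -0.74, adjusted p = 0.0988). At an unadjusted p under 0.05, 3 were higher and 2 lower. DESeq2 called these same numbers, and limma called 3 higher and 0 lower. *agsA* passed without flask 2 (adjusted p = 0.0160). *amyF* was near the floor of detection, at 1.3, 7.61 and 7.32 at 0 min and 11.2, 58.7 and 28.9 at 120 min (log2 fold change 2.60, SE 0.39, adjusted p = 0.0408), and was not called without flask 2 (adjusted p = 0.107). Neither *agnE* (adjusted p = 0.0791) nor *amyF* (adjusted p = 0.105) was called without the flask block.

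*agnE* lay in the densest stretch of rising genes. Of the 16 tested genes from AN1600 to AN1616, 8 were called higher, and among 7656 windows of 15 neighbouring tested genes the highest number called was 7, in this stretch. AN1600, related to an NmrA family regulator of *N. crassa*, had 3.90, 9.90 and 2.44 at 0 min and 266, 133 and 186 at 120 min, a log2 fold change of 4.99 (SE 0.56, adjusted p = 0.0292, edgeR). AN1614, a predicted methyltransferase, had 10.4, 14.5 and 4.88 at 0 min and 174, 118 and 336 at 120 min, with 4.20 (SE 0.60, adjusted p = 0.0384). In contrast to *agnE*, flask 2 was the lowest of the 3 in both at 120 min. AN1611 and AN1612, also called in this stretch, were not called without flask 2 (adjusted p = 0.0748 and 0.0626) or without the flask block (adjusted p = 0.123 and 0.0534). Genes between them were not called, such as AN1606 with -1.09, which passed as lower without flask 2 (adjusted p = 0.0351). Over all chromosomes 40 of the 254 placed genes called higher (15.7%) and 24 of the 98 called lower (24.5%) had a neighbour called the same way. Of 7760 neighbour pairs, 24 were both higher (0.309%) and 12 both lower (0.155%). Of all genes tested, 3.21% were called higher and 1.21% lower. Whether called genes lay together more often than other genes was not tested.

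Genes for gluconeogenesis and the glyoxylate cycle, which let the fungus grow on acetate and lipids, were called higher by edgeR in 4 of 7 cases. It called 0 lower, and the list had a median log2 fold change of 1.24. Over all genes tested 3.21% were called higher. All 7 lay above 0, and 6 rose in each flask. In 6 the groups did not overlap, as was so on the higher side for 17.6% of all genes tested. *acuF* (AN1918), for phosphoenolpyruvate carboxykinase, had normalized counts of 303, 185 and 341 at 0 min and 1248, 762 and 1196 at 120 min. *acuD* (AN5634), for isocitrate lyase, had 130.0, 107 and 140.2 at 0 min and 324, 289 and 604 at 120 min. *acuG* (AN5604), for fructose bisphosphatase, had 360.2, 453 and 405 at 0 min and 1162, 1056 and 1067 at 120 min. In all of these the groups were apart. The flasks lay close together in *acuG*, while flask 2 was the lowest in *acuF* and flask 3 the highest in *acuD* at both times. The log2 fold changes were 1.99 for *acuF* (SE 0.13, adjusted p = 0.0174), 1.64 for *acuD* (SE 0.23, adjusted p = 0.0365), 1.46 for *acuG* (SE 0.15, adjusted p = 0.0258) and 1.24 for *acuE*, for malate synthase (SE 0.19, adjusted p = 0.0447), by edgeR. *facB*, for the regulator of acetate use, was at 0.01 (adjusted p = 0.983). *acuE* was not called without the flask block (adjusted p = 0.0638).

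Of the 8 genes listed for glycolysis and fermentation 1 was called higher and 0 lower, with a median log2 fold change of -0.04. The gene called was *pdcA* (AN4888), for pyruvate decarboxylase of ethanol fermentation, with 4781, 4641 and 3729 at 0 min and 13884, 8817 and 10541 at 120 min (log2 fold change 1.35, SE 0.21, adjusted p = 0.0455, edgeR). Among 16 genes for polysaccharide breakdown 13 had a log2 fold change above 0, with a median of 0.81, and edgeR called 0 higher, where 8 had an unadjusted p under 0.05, limma called 1 and DESeq2 4. It called 1 lower, *pgaB* (AN4372), a polygalacturonase gene of pectin breakdown, with 5001, 4324 and 3768 at 0 min and 1488, 835 and 1338 at 120 min. Its groups were far apart, with a log2 fold change of -1.85 (SE 0.23, adjusted p = 0.0326). Of 4 heat shock genes *hsp104* and *hsp30* rose, by 1.34 (SE 0.16, adjusted p = 0.0312) and 1.79 (SE 0.18, adjusted p = 0.0252), while *hsp90* and *hsp70*, with -1.13 (adjusted p = 0.184) and -0.94 (adjusted p = 0.250), were not called. In both uncalled genes flask 3 was far the highest at 0 min, with 8642, 10950 and 25816 for *hsp90* and 11934, 14198 and 31927 for *hsp70*. Their flask log2 fold changes were -0.34, -0.84 and -2.33 for *hsp90* and -0.09, -0.66 and -2.18 for *hsp70*. The call of *hsp30* ended without the flask block (adjusted p = 0.118). *aatA*, for the last enzyme of penicillin synthesis, fell by 1.33 (SE 0.17, adjusted p = 0.0323) and was the only called member of 6 genes listed for toxin and antibiotic clusters. It fell in each flask, but its groups overlapped, with 1075, 392 and 1214 at 0 min and 428, 193 and 373 at 120 min. *aatA* too was not called without the block (adjusted p = 0.133). Its neighbour AN2622, which was not on the list, was also called lower by edgeR, with -1.37 (adjusted p = 0.0312).

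**Figure D5:**
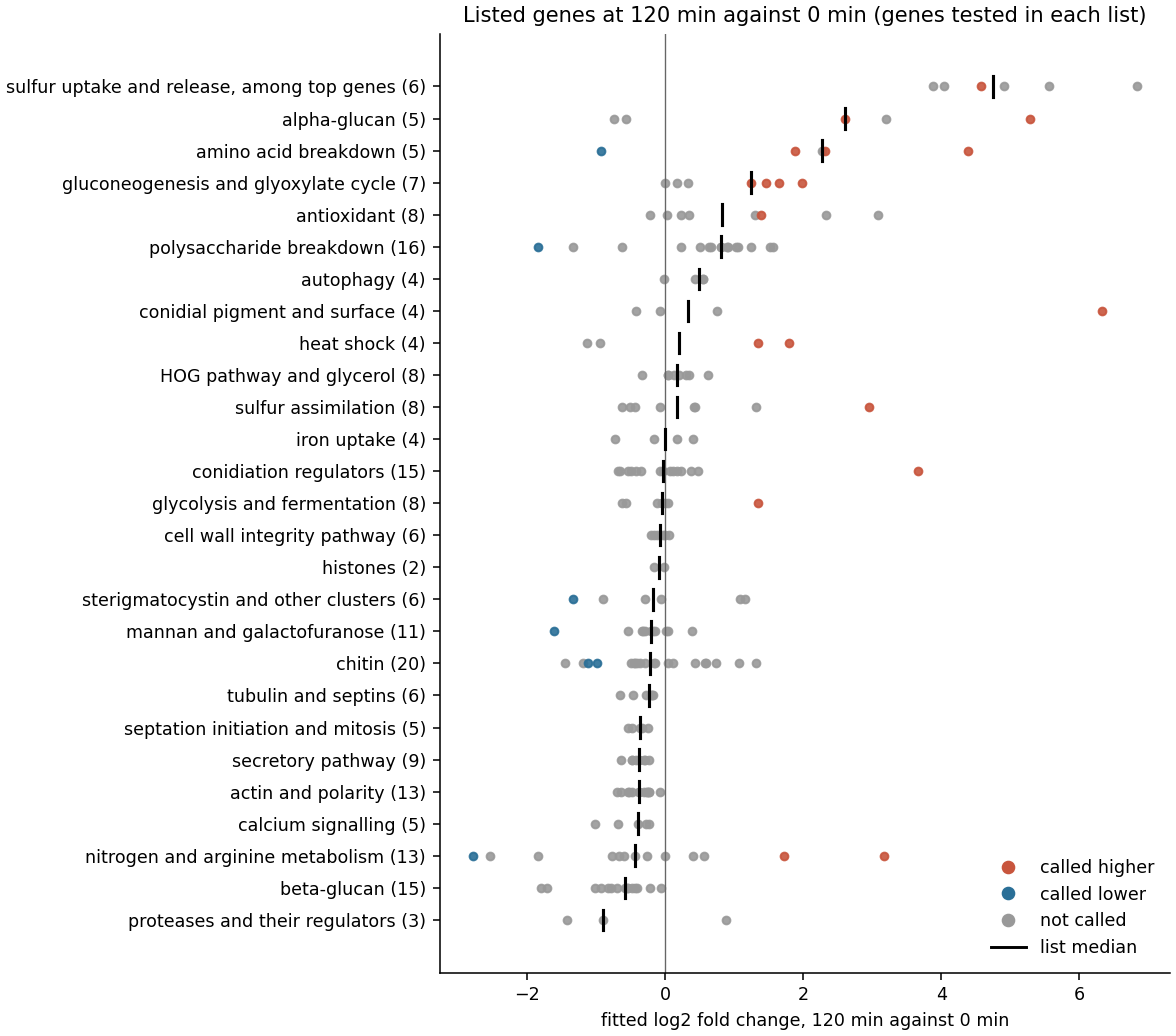
Each point is a listed gene, placed by edgeR's log2 fold change of 120 against 0 min (x axis, 3 flasks) in the row of its list, with the number of genes tested in brackets. Red and blue points passed the test and black ticks mark list medians. The sulfur genes drawn from the study's most overexpressed genes have the highest median, as that choice favours, with 1 of 6 red, and all points of the beta-glucan, actin, secretory, tubulin, septation and calcium lists lie left of 0 with 0 called.

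Genes that remodel the beta-glucan layer lay slightly lower as a list with 0 calls. The list does not hold the synthase that micafungin inhibits, which was not analysed here. All 15 tested had a log2 fold change below 0, with a median of -0.58 against -0.01 over all genes, and 11 went down in each flask. In 10 of the 15 the groups did not overlap, as was so on the lower side for 15.9% of all genes tested. edgeR called 0 higher and 0 lower, where 9 had an unadjusted p under 0.05 and were lower, limma called 1 lower and DESeq2 7. *crh1*, related to the yeast transglycosylase that links chitin to glucan, had normalized counts of 7743, 1856 and 3607 at 0 min and 1124, 888 and 1149 at 120 min, with a log2 fold change of -1.80 (SE 0.37, adjusted p = 0.0724, edgeR). Flask 2 was the lowest at both times, and the groups did not overlap. The glucanase gene *exgB* had -1.71 (SE 0.44, adjusted p = 0.101). Flask 2 had the smallest shift, with list medians of -0.792, -0.345 and -0.804 in flasks 1, 2 and 3. Without flask 2 edgeR called 2 of the 15 lower, with *crh1* at an adjusted p of 0.0414.

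The called wall genes that fell make or cut chitin and mannan. *chsC* (AN4566), for a class I chitin synthase, had 1910.1, 1698 and 1685 at 0 min and 919, 993 and 725 at 120 min. *chiB* (AN4871), for a chitinase, had 1017, 910.0 and 1467 at 0 min and 486, 514 and 506 at 120 min. *dfgC* (AN0393), of a mannanase family, had 395, 308 and 326 at 0 min and 126, 105 and 102 at 120 min. In all of them each 0 min library exceeded each 120 min library by a wide margin. The log2 fold changes were -0.99 (SE 0.14, adjusted p = 0.0384), -1.12 (SE 0.17, adjusted p = 0.0440) and -1.6 (SE 0.15, adjusted p = 0.0238) by edgeR. They were edgeR's only calls among 20 chitin genes (median -0.22) and 11 mannan and galactofuranose genes (median -0.20). The chitin list was mixed, with 5 higher and 5 lower at an unadjusted p under 0.05, 1 higher and 3 lower called by limma, and 2 higher and 4 lower by DESeq2. Of 6 genes of the cell wall integrity pathway, which span -0.20 to 0.06, edgeR, limma and DESeq2 each called 0, and 0 had an unadjusted p under 0.05. This list does not cover the whole pathway, since other members were not analysed here.

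Lists for the growing tip had medians slightly below 0 and 0 calls by edgeR. All 13 actin and polarity genes lay below 0, with a median log2 fold change of -0.38, and edgeR called 0, where 3 had an unadjusted p under 0.05, limma called 1 lower and DESeq2 2. All 9 genes of the secretory pathway lay below 0, with a median of -0.37, and edgeR and limma called 0, where 4 had an unadjusted p under 0.05 and DESeq2 called 1. The same was so for 5 of 5 genes of septation and mitosis (median -0.36), 6 of 6 of tubulin and septins (median -0.24) and 5 of 5 of calcium signalling (median -0.39), with 0 called by edgeR and by limma, 4, 1 and 2 at an unadjusted p under 0.05, and 0, 1 and 2 called by DESeq2. Flask 2 was the closest to 0 in the actin list, with flask medians of -0.42, -0.0988 and -0.678. In the tubulin and septin list the flask medians were -0.36, 0.0438 and -0.608, and 3 of the 6 genes fell in every flask. The summed count of the hyphal markers *gpdA*, *actA* and *benA* was 45990 to 64920 at 0 min and 36010 to 43710 at 120 min, and edgeR and limma called 0 of the 3, where *benA* had an unadjusted p under 0.05 and was called lower by DESeq2. Of the 8 genes of the HOG pathway, which answers osmotic stress, 7 lay above 0 with a median of 0.17, and edgeR, limma and DESeq2 called 0, where 2 had an unadjusted p under 0.05. For 4 autophagy, 4 iron uptake, 3 protease and 2 histone genes edgeR and limma called 0 as well, with medians of 0.49, 0.00, -0.90 and -0.09. Of these lists the unadjusted p was under 0.05 in 1, 1, 3 and 0 genes, and DESeq2 called 0, 0, 3 and 0. The protease list went both ways, with 1 higher and 2 lower by either count. The protease regulator gene *xprG* had a log2 fold change of 0.89, while *pepA* and *dpp5* had -0.90 and -1.42.

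Other large rises belonged to genes with few known roles. AN3339, related to a quinone oxidoreductase of *N. crassa*, had normalized counts of 2.60, 3.05 and 0 at 0 min and 349.9, 308 and 265 at 120 min. AN2469, a predicted oxidoreductase, had 16.9, 16.0 and 6.10 at 0 min and 2391, 1600.5 and 1055 at 120 min. AN1941, a predicted GPI-anchored wall protein, had 23.4, 31.2 and 15.9 at 0 min and 631, 3656 and 304 at 120 min. The groups were far apart in all of them, and AN1941 was far higher in flask 2 than in the others at 120 min. They had log2 fold changes of 7.20 (SE 0.47, adjusted p = 0.0174), 7.01 (SE 0.24, adjusted p = 0.0106) and 5.47 (SE 0.61, adjusted p = 0.0292) by edgeR. AN2116, whose yeast relative is induced by a mycotoxin, rose by 6.52 (SE 0.57, adjusted p = 0.0223), AN5841, related to a nucleotide sugar epimerase, by 5.14 (SE 0.52, adjusted p = 0.0252) and AN3996, a predicted methyltransferase, by 5.22 (SE 0.72, adjusted p = 0.0365), the last not without the flask block (adjusted p = 0.0808). Among genes with the largest gain in counts, AN3961 went from 5424, 4002 and 3924 to 23808, 21262 and 9797, with a log2 fold change of 1.98 (SE 0.27, adjusted p = 0.0362). AN3961 is uncharacterized, and without flask 2 its adjusted p was 0.0527.

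Among the genes with the steepest falls were *gmcA*, AN3531 and AN2392. *gmcA* (AN8547), of the glucose-methanol-choline oxidoreductase family, had normalized counts of 651, 187 and 1433 at 0 min and 62.0, 29.4 and 76.4 at 120 min. AN3531, of the same predicted activity, had 36.4, 22.1 and 43.9 at 0 min and 3.05, 2.59 and 2.79 at 120 min. AN2392, of unknown role, had 48.1, 19 and 101 at 0 min and 5.09, 2.59 and 2.79 at 120 min. Flask 2 was the lowest at 0 min in each, and the groups did not overlap. The log2 fold changes were -3.44 (SE 0.33, adjusted p = 0.0249), -3.48 (SE 0.38, adjusted p = 0.0285) and -3.77 (SE 0.52, adjusted p = 0.0365) by edgeR. Without the flask block *gmcA* had an adjusted p of 0.0522. Of the 17 tested genes that the study annotates as oxidoreductases acting on CH-OH groups, edgeR called 5 lower (*gmcA*, AN3531, AN2648, AN2387 and AN8964) and 2 higher, and the median log2 fold change of the 17 was 0.92. Of 139 genes annotated with any oxidoreductase activity it called 20 higher and 11 lower (median 0.71), and of 3 primary amine oxidases 2 lower, AN1586 with -1.86 and AN2532 with -1.3. AN2648, AN2387, AN8964 and AN2532 were not called without the block either (adjusted p = 0.0591, 0.102, 0.0531 and 0.0587), nor AN2532 without flask 2 (adjusted p = 0.0649). The annotation was looked up after the values were seen and covers 1018 tested genes, 114 of them called higher and 47 lower.

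An even fall across flasks was that of AN2827, annotated as a calcium-transporting ATPase, with normalized counts of 1118, 1302 and 952 at 0 min and 223, 267 and 176 at 120 min. All flasks fell to about the same degree, and the log2 fold change was -2.33 (SE 0.12, adjusted p = 0.0174, edgeR). AN3566, annotated as an alpha-mannosidase, had 3041, 2584 and 2891 at 0 min and 979, 642 and 655 at 120 min, with -1.90 (SE 0.16, adjusted p = 0.0223). AN5053, annotated as an acetyltransferase, fell by 3.15 (SE 0.28, adjusted p = 0.0223), AN2798 by 2.31 (SE 0.16, adjusted p = 0.0181), AN0009, annotated as a hydrolase, by 2.30 (SE 0.23, adjusted p = 0.0252) and AN3573, an oxidoreductase, by 2.08 (SE 0.24, adjusted p = 0.0295). *aspf34*, related to an allergen of *Aspergillus fumigatus*, had 874, 226 and 4134 at 0 min and 116, 91.6 and 499 at 120 min. Its flasks differed so much that the times overlapped, though it fell in each flask (log2 fold change -2.43, SE 0.40, adjusted p = 0.0490). Without the flask block AN5053, AN0009, AN3573 and *aspf34* were not called (adjusted p = 0.0508, 0.0565, 0.0503 and 0.184).

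The flasks agreed to different degrees among called genes. The SD of the 3 flask log2 fold changes had a median of 0.359 among genes called higher and 0.328 among those called lower. It was smallest in AN2003, AN1302, AN0930, AN3100 and AN3408. AN1302 had flask log2 fold changes of 2.60, 2.66 and 2.68, although its normalized count at 0 min was 23.4, 57.9 and 13.4. The SD was largest in *furG* (3.54, 6.41 and 7.32 in flasks 1, 2 and 3), AN3996, *agnE*, *ivoB* and AN1322. Of the genes with the smallest SD, AN2003 and AN0930 were not called without flask 2 (adjusted p = 0.0995 and 0.104), and AN2003, AN1302 and AN3408 were not called without the flask block (adjusted p = 0.0645, 0.0901 and 0.0808). The call of AN1322 ended without the block too (adjusted p = 0.0566).

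The called genes were followed back through the earlier libraries, which share the 0 min libraries and so are not independent of the calls. For the 266 genes called higher, flasks 1, 2 and 3 had medians of 0.202, 0.331 and 0.271 on the log2 scale at 20 min, 0.914, 1.14 and 0.753 at 60 min and 1.89, 1.6 and 1.92 at 120 min. For the 100 called lower it was -1.07, -1.01 and -0.527 at 60 min and -1.54, -1.45 and -1.62 at 120 min. By 60 min 241, 255 and 228 of the 266 lay above 0. Single genes differed in timing. *gmcA* was at a mean of 67.7 ± 14.8 (SD, n = 3) by 60 min, near its 58.6 ± 25.4 (SD, n = 3) at 120 min. *sA* was at 8848 ± 4005 (SD, n = 3) at 60 min and at 6090 ± 514 (SD, n = 3) at 120 min, whereas *hpdA* was at 329.9 ± 245 (SD, n = 3) at 60 min and reached 2088 ± 1718 (SD, n = 3) at 120 min. Of *gmcA*, *sA* and *hpdA*, the flasks differed most for their mean in *hpdA*, in which the SD was close to the mean.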

How the data were processed

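RNA-seq counts of *A. nidulans* mycelium at 0 and 120 min of micafungin were analysed, 3 flasks each. Groups and flask numbers came from the labels, and the pairing from the study's methods, which describe serial sampling of each flask. Single-end reads had been mapped by the authors to the FGSC A4 genome (Ensembl Fungi) with HISAT2 2.1.0 and assigned to genes with HTSeq 0.9.1. The annotation release, the use of strand and any trimming were not given in the sources used here. Reads of overlapping genes may therefore be mixed. The authors deposited raw counts for 9541 genes. The tables also hold their normalized values, fold changes and p-values from DESeq2 1.20.0, which were not used. At 15 min 1 column of raw counts carries a replicate number that no label has. It was assigned to its time only. It entered the filter on reads and the size factors of the time courses, no fit included it, and the matching normalized column was not used.

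A gene was kept if 2 or more flasks had reads for it at each of the 13 times, which left 8290 genes. They were tested in R 4.3.3 with edgeR 4.0.16, with TMM normalization, the quasi-likelihood test, the flask as a block and Benjamini-Hochberg adjustment over all 8290 genes, with a threshold of 0.05. Adjusted p in the text are edgeR's unless another tool is named. SE is the size of the log2 fold change over the square root of F, and flask fold changes use a pseudocount of 0.5. Normalized counts are counts over the DESeq2 size factors of the 6 libraries, or of all libraries for time courses. Same-numbered libraries deviated from their group means with correlations of -0.130, 0.149 and 0.248. Between replicates, counts differed by a chi-square of 28.8 to 132 per degree of freedom, far above counting noise. On simulated counts of this comparison edgeR recovered 59 of 66 genes at a 4-fold change, 12 of 67 at a 2-fold change and 2 of 67 at a 1.5-fold change, and 5 of its 78 calls were false. The changes were set only in genes above a minimum mean count, with the same fold in all flasks. Recovery in genes of low count or with unlike changes between flasks was not measured.

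Alternatives used limma 3.58.1, DESeq2 1.42.0, other filters, no flask block, all time points in 1 fit and each flask left out. The 27 lists hold 218 genes, 216 of them tested. Genes were named by the size of fold change (12 each way), the change in mean count (10 each way), list membership, runs of 3 or more neighbours, and the smallest and largest flask SD (5 each), and exceptions are marked. No gene met a further rule for genes without reads at 1 time and with at least 10 in each library of the other. The members and lists were chosen with earlier results of these data known. Gene order came from the RefSeq table of ASM1142v1, which matched 7768 tested genes. Roles of AN-numbered genes are those of the study's supplement and annotation. Other markers of spores and hyphae that had been planned were not used here.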

Additional observations from a re-analysis of the deposited data

How the results depend on the processing

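The 266 genes called higher and 100 called lower became 782 and 404 with DESeq2, which held all 366, and 1365 and 1036 with all time points in 1 fit. With 1 flask left out the counts ranged from 0 to 453 higher and from 0 to 128 lower. The upper ends came without flask 2, where 188 and 75 of the calls were shared. Without the replicate block, which is based on serial sampling of each flask, 178 and 69 genes were called, 141 and 48 of them shared. With limma they were 304 and 128, with DESeq2 size factors in edgeR 288 and 117, with no filter 306 and 123, with filterByExpr 298 and 113, and with a normalized count of at least 10 in 2 libraries 280 and 101. Of 130 named genes recomputed under 11 alternatives 89 were called, and these kept their direction in each fit that held them. Of the 89, 45 passed with no block, 75 without flask 2, and 0 without flask 1 or flask 3. Each fit without a flask, flask 2 included, left 1 residual degree of freedom. Uncalled genes near 0 changed sign. The log2 fold change of *facB* was -0.016 with DESeq2 size factors, -0.014 with filterByExpr, -0.014 in the fit of all time points and -0.016 with DESeq2. With a flask left out it ranged from -0.13 to 0.049 for *facB*, from -0.13 to 1.08 for *abaA*, from -0.034 to 0.054 for AN1894, from -0.33 to 0.048 for *yA* and from -0.35 to 0.050 for *gpdA*. In the simulated counts most 2-fold changes were not detectable with 3 flasks. The cause of these shifts was not tested.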

Other observations

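Among neighbouring tested genes, 4 runs of 3 or more were called higher by edgeR and 0 lower. The densest stretch of falling genes had 4 of 15 tested genes called lower by edgeR, AN7875, AN7878, AN7879 and AN7883, with log2 fold changes of -3.26 to -1.77. AN7883 had normalized counts of 62.4, 29.7 and 159.7 at 0 min and 5.09, 7.77 and 8.38 at 120 min, so that the groups were far apart. None of these 4 was called without the flask block (adjusted p = 0.0503 to 0.147). A stretch that rose, AN1322 to AN1302, had 6 of 15 called higher, among them AN1312, which went from 32.5, 22.8 and 26.8 to 297, 191 and 163. All flasks of AN1312 rose by a similar degree, with a log2 fold change of 2.98 (SE 0.21, adjusted p = 0.0215, edgeR). What these genes encode together was not looked up, and the stretches were picked after their values were seen.

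Of the 105 tested genes that the study annotates for transmembrane transport, edgeR called 15 higher (14.3%) and 3 lower (2.86%), with a median log2 fold change of 0.92. Over all 1018 annotated genes it called 11.2% higher and 4.62% lower, with a median of 0.04, so the share of rising transport genes was near that background. The study listed these genes from the same libraries, so the count is a description.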
